A study of Mus musculus with 13 samples.

Results

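The genes described here are 10 genes that set the pace of the first gap phase (G1) of the cell cycle in mouse melanoma cell lines, read through acetylation of lysine 27 of histone H3 (H3K27ac), a mark of active promoters and enhancers. They were the CIP/KIP inhibitor genes Cdkn1a, Cdkn1b and Cdkn1c, the INK4 inhibitor genes Cdkn2c and Cdkn2d, the D-type cyclin genes Ccnd1 and Ccnd2, the kinase genes Cdk4 and Cdk6, and Rb1. They were taken by name, as 10 of 21938 protein-coding genes, and 251 of the 256200 peaks in 9 H3K27ac peak lists overlapped their windows, where a window is the gene body in GRCm38 (mm10) plus 10 kb on each side. A list called a promoter if any of its peaks came no farther than 1 kb from a start site (TSS) of the gene in the annotation, and the covered length is the number of kb of the window that lay inside peaks.

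Each list came from 1 cell line, and every line was established from a melanoma of a mouse with the Tyr::NRAS Q61K transgene, heterozygous loss of Cdkn2a and floxed Cdh1 alleles (Cdh1 F/F), Cdh1 being the gene of E-cadherin. Ecad lines had no Cre, and ΔEcad lines also carried Tyr::CreA, a Cre recombinase driven in the melanocyte lineage. The male Ecad lines were Ma_1007 and Ma_1181, the female Ecad lines Ma_1014 and Ma_1039, the male ΔEcad lines Ma_1062 and Ma_1456, and Ma_1057, Ma_1064 and Ma_1069 were female with ΔEcad. All grew untreated in F12 medium with serum, so the groups differ in sex and Cre genotype and share the NRAS transgene and the Cdkn2a allele. The floxed allele marks the genotype of the mouse, and whether each ΔEcad line had lost Cdh1 was not examined here. Each line was taken as 1 replicate, and each p-value comes from an exact test over lines. Whether every line came from a separate tumour and mouse was not examined here.

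In G1, D-type cyclins bind CDK4 and CDK6, and the active kinases phosphorylate the retinoblastoma protein, encoded by Rb1, which then releases E2F factors that drive genes of DNA replication. INK4 proteins (p16 from Cdkn2a, p15 from Cdkn2b, p18 from Cdkn2c, p19 from Cdkn2d) bind CDK4 and CDK6 and keep the cyclins away. CIP/KIP proteins (p21 from Cdkn1a, p27 from Cdkn1b, p57 from Cdkn1c) bind cyclin-CDK complexes, above all those of CDK2. Loss of p16, extra copies of the cyclin D1 gene and mutations of CDK4 are known lesions of melanoma.

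The lists held 20741 to 41663 peaks and covered 29.5 to 67.2 Mb. The female ΔEcad lists had the lowest shares of genes with a called promoter, 25.3% to 33.4%, against 38.4% to 48.6% in the other 6 lists. Read depths are unknown, because a peak list holds no counts. The promoters of all 6 melanocyte markers (Mitf, Sox10, Tyr, Dct, Pmel and Mlana) were called in all 9 lists, and those of the 3 immune, 3 keratinocyte and 3 endothelial markers were called in 0. Cdkn2a was covered over 0 kb in Ma_1007, Ma_1062 and Ma_1069 and over 3.52 to 16.8 kb in the other 6 lines, and the promoters of Cdkn2a and Cdkn2b were called in the same 6 lines.

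The G1 machinery was widely marked. The promoters of 7 of the 10 genes (Cdkn1a, Cdkn1b, Cdkn2c, Ccnd1, Ccnd2, Cdk4 and Rb1) were called in all 9 lists, against 21.1% of all protein-coding genes. With only the stronger peaks of each list, those at or above its median −log10 q, the count was 4. The share of all genes under that setting is not given here. Rb1 was in both counts only through an internal start, and its 5′ end had a peak within 1 kb in 6 lists. Cdkn2d was called in 8 lists, Cdk6 in 5 and Cdkn1c in 1. The number of the 10 called per line was 8 in Ma_1007, 9 in Ma_1181, 10 in Ma_1014, 9 in Ma_1039, 9 in Ma_1062 and 8 in each of Ma_1456, Ma_1057, Ma_1064 and Ma_1069. The 7 genes do not have 1 common level of marking, as the grid of covered lengths shows.

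**Figure D1:**
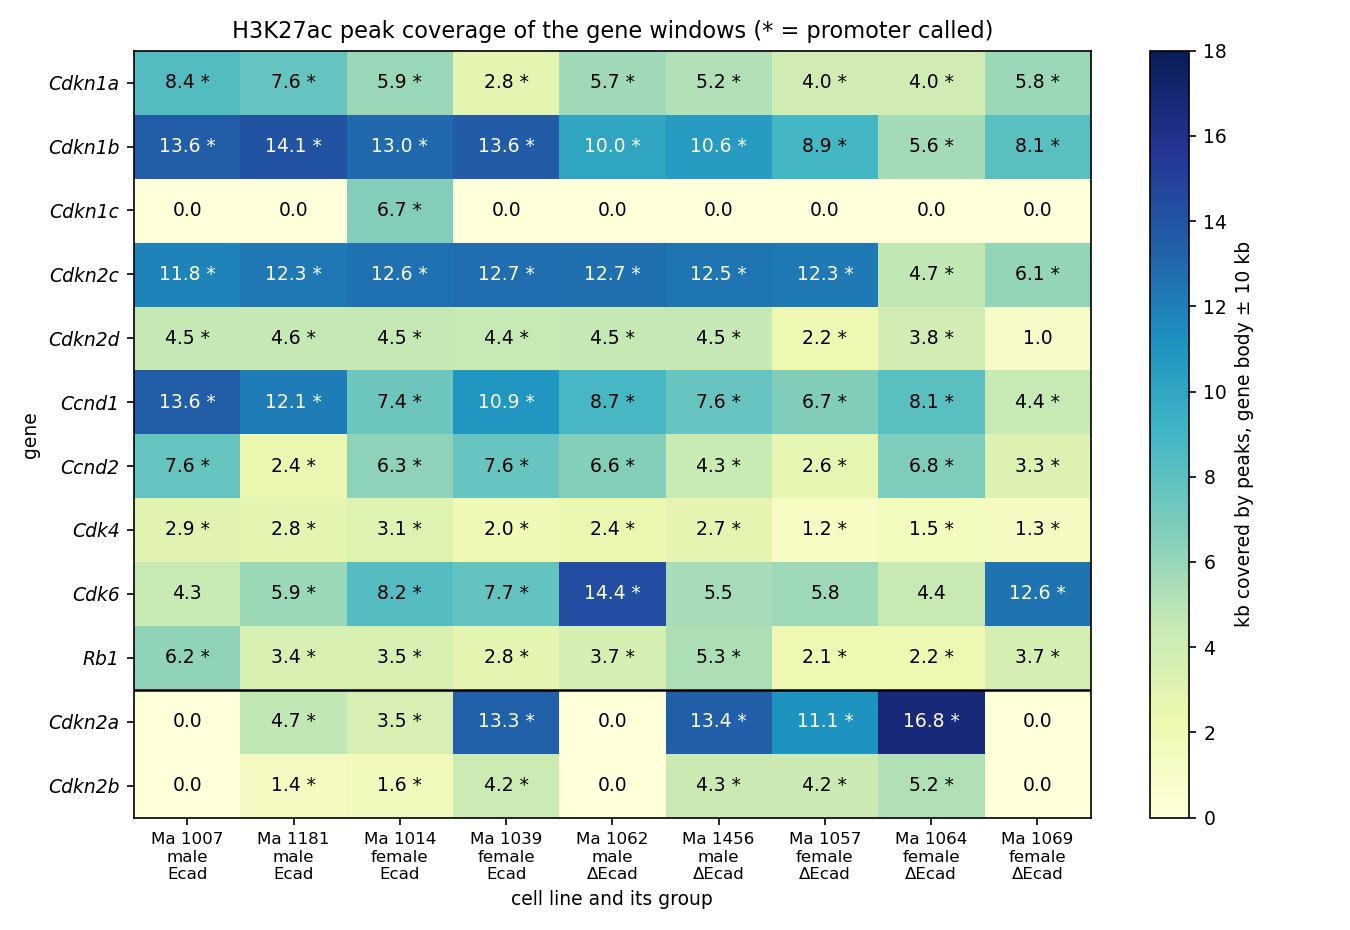
Each cell gives the kb covered by H3K27ac peaks in the gene body plus 10 kb on each side, for a gene (rows) in a line (columns, with sex and genotype), and a star marks a called promoter; the rows under the black line are Cdkn2a and Cdkn2b. Cdkn1c was covered in Ma_1014 alone, and Cdk6 had its highest values, 14.4 and 12.6 kb, in Ma_1062 and Ma_1069.

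Of the CIP/KIP genes, Cdkn1b, which encodes p27, an inhibitor that holds cells in G1, had the longest covered length in every line. This ranking holds within the windows only, because much of the marking upstream of Cdkn1a lies outside its window. Cdkn1b lies on the plus strand of chromosome 6 from 134920401 to 134925513. Its covered length was 13.6 kb in Ma_1007, 14.1 kb in Ma_1181, 13.0 kb in Ma_1014 and 13.6 kb in Ma_1039, and 10.0 kb in Ma_1062, 10.6 kb in Ma_1456, 8.92 kb in Ma_1057, 5.62 kb in Ma_1064 and 8.13 kb in Ma_1069. Each Ecad line lay above each ΔEcad line, and among the ΔEcad lines both male lines lay above the 3 female lines. The mean was 8.66 kb ± 1.95 (s.d., n = 5) in ΔEcad lines and 13.5 kb ± 0.451 (n = 4) in Ecad lines, a difference of -4.88 kb (exact two-sided permutation test, p = 0.00794, the smallest that 126 splits allow; Benjamini-Hochberg adjusted p = 0.207). Of all 15380 genes tested, 17.2% were lower in ΔEcad lines at an unadjusted p under 0.05. The promoter peak of Cdkn1b was 4417 to 4866 bp wide in the Ecad lines, 3657 and 4248 bp in Ma_1062 and Ma_1456, and 1743, 1675 and 1119 bp in Ma_1057, Ma_1064 and Ma_1069. Its promoter is shown for what the peak spans: the RefSeq entry (GRCm38.p6, plus strand), chr6:134920151-134920400, gives the 250 bases before the start, and capitals mark a GC box (GGGCGG, bound by SP1 factors) and a pair of CCAAT boxes (CCAAT, bound by NF-Y), with both strands searched.
Cdkn1b promoter: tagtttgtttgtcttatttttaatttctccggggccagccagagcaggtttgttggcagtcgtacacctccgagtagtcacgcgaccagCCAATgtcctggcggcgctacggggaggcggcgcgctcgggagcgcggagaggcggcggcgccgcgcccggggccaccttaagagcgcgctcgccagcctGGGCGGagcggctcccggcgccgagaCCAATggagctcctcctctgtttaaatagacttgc
A peak overlapped these 250 bases in 8 of 9 lists; that of Ma_1069 began inside the gene. A GC box stood in 32.7% and a CCAAT box in 33.8% of the 32851 RefSeq promoters of the same length.

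The strongest peak in the Cdkn1b window was not at its promoter. In all 9 lists it had its summit 7.63 to 7.87 kb from the Cdkn1b start, past the 3′ end of the gene and just before the start of the long non-coding RNA gene Lockd at 8.69 kb. Its −log10 q was 903 in Ma_1007, 1300 in Ma_1181, 586 in Ma_1014 and 385 in Ma_1039, and 201 in Ma_1062, 237 in Ma_1456, 132 in Ma_1057, 177 in Ma_1064 and 115 in Ma_1069. Over all peaks of a list the median −log10 q was 31.0 to 42.2 in the Ecad lines and 20.3 to 27.3 in the ΔEcad lines. The lists as a whole thus moved the same way. Within its own list this peak ranked by −log10 q at the 98.8 to 99.6 percentile in Ecad lines and the 94.1 to 98.3 percentile in ΔEcad lines. It was 5.59 to 9.08 kb wide in the 4 Ecad lines, where it also covered the Lockd start, and 2.38 to 2.98 kb wide in the 5 ΔEcad lines, where a separate peak lay past the Lockd start. The 201 bases at the median summit, chr6:134928029-134928229 on the plus strand of GRCm38.p6, are shown because this is the element that all lines share; none of 6 motifs matched them on either strand. Those were the GC box and the CCAAT box, the E-box CACGTG bound by MYC and MITF, the M-box with letters CACATG, the AP-1 site with letters TGANTCA, and the SOX motif with letters ACAAAG.
Cdkn1b downstream element: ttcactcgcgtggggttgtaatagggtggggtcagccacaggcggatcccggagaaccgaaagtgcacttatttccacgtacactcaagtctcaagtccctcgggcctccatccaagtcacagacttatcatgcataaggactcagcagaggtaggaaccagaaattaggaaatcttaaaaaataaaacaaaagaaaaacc
Whether this acetylation belongs to Cdkn1b or to Lockd cannot be told apart from the lists.

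Cdkn1a, the p53 target gene of p21, was marked at its promoter and far upstream. It lies on the plus strand of chromosome 17 from 29090976 to 29100727. Covered length was 8.35 kb in Ma_1007, 7.61 kb in Ma_1181, 5.95 kb in Ma_1014, 2.80 kb in Ma_1039, 5.75 kb in Ma_1062, 5.18 kb in Ma_1456, 3.97 kb in Ma_1057, 3.97 kb in Ma_1064 and 5.84 kb in Ma_1069. The male Ecad lines were highest and the female Ecad line Ma_1039 lowest, so the genotypes overlapped (difference ΔEcad minus Ecad -1.24 kb, exact permutation p = 0.325). Each line was also left out in turn. Without Ma_1039, the Ecad line that ran against it, the difference was -2.36 kb. Every remaining Ecad line then lay above every ΔEcad line, with an unadjusted exact permutation p = 0.0179, the smallest that such a split allows. This run is singled out by the value of Ma_1039 itself, so its p-value is a description and no support for a difference. In that setting 12.3% of all genes tested were lower at an unadjusted p under 0.05. Per Mb covered by the list, with all lines, the difference was above 0. The promoter call rests on more than 1 start: the 5′ starts at 29090976 had a peak within 1 kb in 8 lists, all but Ma_1039, and the start group at 29093769 in 8 lists, all but Ma_1064.

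A peak with its summit between -12.3 and -12.2 kb of the Cdkn1a start was among the strongest of every list. It covered the start of Trp53cor1 (lincRNA-p21), a p53-induced non-coding RNA transcribed away from Cdkn1a, at -11.8 kb. Its percentile by −log10 q was 99.3 in Ma_1007, 99.6 in Ma_1181, 98.8 in Ma_1014, 96.9 in Ma_1039, 99.0 in Ma_1062, 99.4 in Ma_1456, 99.3 in Ma_1057, 99.0 in Ma_1064 and 99.3 in Ma_1069. By comparison the promoter peak of Cdkn1a ranked at the 34.3 to 93.5 percentile. The summit of this peak lies outside the 10 kb flank, so the covered length of Cdkn1a holds only its near end or a neighbouring peak.

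Cdkn1c, the imprinted gene of p57, had no called peak in its window in 8 of the 9 lines. It lies on the minus strand of chromosome 7 from 143458339 to 143461050. In Ma_1014, a female Ecad line, 2 peaks covered 6.67 kb of its window, the nearer one a peak of 4974 bp that ended at -0.474 kb of the annotated 5′ end and ranked at the 67.3 percentile of its list. All other lists had 0 peaks in the window. Another 110 protein-coding genes had the same pattern of a promoter call in Ma_1014 alone.

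Both INK4 genes outside the Cdkn2a locus were marked, and for both the mean covered length was lower in the female ΔEcad lines. Cdkn2c, the gene of p18, lies on the minus strand of chromosome 4 from 109660876 to 109667189. Its covered length was 11.8 kb in Ma_1007, 12.3 kb in Ma_1181, 12.6 kb in Ma_1014, 12.7 kb in Ma_1039, 12.7 kb in Ma_1062, 12.5 kb in Ma_1456 and 12.3 kb in Ma_1057, but 4.69 kb in Ma_1064 and 6.08 kb in Ma_1069. In 7 lines the gene was thus covered nearly throughout, and in Ma_1014, Ma_1039, Ma_1062 and Ma_1456 a single peak of 11084 to 11470 bp ran from before its start to past its end. The female ΔEcad mean was 7.68 kb ± 4.04 (s.d., n = 3) against 12.4 kb ± 0.330 (n = 6) in the other lines (exact permutation p = 0.0238, adjusted p = 0.125). Ma_1057 lay inside the range of the other lines, and the p-value rose to 0.0714 without Ma_1064 or without Ma_1069. The window also holds the start of the non-coding gene 9630013D21Rik and that of Faf1, which had a peak in all 9 lists; without peaks at promoters of other genes the exact permutation p was 0.0833.

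Cdkn2d, the gene of p19, gave even values outside the female ΔEcad group. It lies on the minus strand of chromosome 9 from 21288410 to 21291407. Covered length was 4.53 kb in Ma_1007, 4.55 kb in Ma_1181, 4.51 kb in Ma_1014, 4.45 kb in Ma_1039, 4.55 kb in Ma_1062 and 4.54 kb in Ma_1456, against 2.21 kb in Ma_1057, 3.82 kb in Ma_1064 and 1.02 kb in Ma_1069. The groups did not overlap (2.35 kb ± 1.40, n = 3, against 4.52 kb ± 0.0407, n = 6; exact permutation p = 0.0119, the smallest that 84 splits allow; adjusted p = 0.0914). In the same comparison 25.1% of all 15380 genes tested were lower at an unadjusted p under 0.05. In 6 lines a peak of 3934 to 4079 bp reached from 0.235 to 0.350 kb inside Cdkn2d past its end and over the start of Kri1, so the marking of the 2 genes cannot be told apart there. The Cdkn2d promoter was not called in Ma_1069, and in Ma_1057 it was called by a peak of 341 bp that ranked at the 0.874 percentile of its list. That pattern of 8 calls, all but Ma_1069, was shared by 751 other protein-coding genes.

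Among the D-type cyclins, Ccnd1 (cyclin D1) had a promoter peak at the 98.9 to 99.7 percentile of width in 8 lists, while in Ma_1069 the region was split into peaks of 1947 and 2491 bp. Ccnd1 lies on the minus strand of chromosome 7 from 144929931 to 144939925. Its covered length was 13.6 kb in Ma_1007, 12.1 kb in Ma_1181, 7.44 kb in Ma_1014, 10.9 kb in Ma_1039, 8.73 kb in Ma_1062, 7.58 kb in Ma_1456, 6.73 kb in Ma_1057, 8.09 kb in Ma_1064 and 4.44 kb in Ma_1069. The male Ecad lines and Ma_1039 stood above every ΔEcad line, while the female Ecad line Ma_1014 lay within the ΔEcad range. The ΔEcad mean was 7.11 kb ± 1.66 (n = 5) against 11.01 kb ± 2.61 (n = 4), with an exact permutation p = 0.0476 (difference -3.90 kb, adjusted p = 0.273), and the unadjusted p was above the 0.05 threshold when Ma_1007, Ma_1181, Ma_1039 or any 1 of the ΔEcad lines was left out, up to 0.114. By −log10 q the Ccnd1 promoter peak ranked at the 78.8 percentile in Ma_1069 and at the 89.9 to 99.5 percentile in the other lists.

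Ccnd2 (cyclin D2) varied among lines, and its values overlapped between genotypes. It lies on the minus strand of chromosome 6 from 127125162 to 127152193. Covered length was 7.62 kb in Ma_1007, 2.36 kb in Ma_1181, 6.28 kb in Ma_1014, 7.56 kb in Ma_1039, 6.58 kb in Ma_1062, 4.33 kb in Ma_1456, 2.62 kb in Ma_1057, 6.77 kb in Ma_1064 and 3.25 kb in Ma_1069. The low values were those of the male Ecad line Ma_1181 and the female ΔEcad lines Ma_1057 and Ma_1069 (ΔEcad minus Ecad -1.25 kb, exact permutation p = 0.405). A further element of 3.38 kb in all, with its median summit at -2.05 kb of the start, was called in Ma_1007, Ma_1014, Ma_1039, Ma_1062 and Ma_1064. The antisense gene 9330179D12Rik starts inside Ccnd2 and runs over the Ccnd2 start, so the promoter peak cannot be given to Ccnd2 alone.

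Cdk4 and Cdk6, the kinases that D-type cyclins activate, were marked at different places. Cdk4 lies on the plus strand of chromosome 10 from 127063534 to 127067920 and had a narrow promoter peak of 623 to 1356 bp in all 9 lists. Its covered length was 2.88 kb in Ma_1007, 2.81 kb in Ma_1181, 3.11 kb in Ma_1014, 2.02 kb in Ma_1039, 2.42 kb in Ma_1062 and 2.73 kb in Ma_1456, against 1.24 kb in Ma_1057, 1.48 kb in Ma_1064 and 1.34 kb in Ma_1069. Every female ΔEcad line lay below every other line (1.36 kb ± 0.122, n = 3, against 2.66 kb ± 0.389, n = 6; exact permutation p = 0.0119, adjusted p = 0.0914). Here too the share of all 15380 genes lower at an unadjusted p under 0.05 was 25.1%. A peak at the start of Tspan31, with its summit 6.59 to 6.63 kb from the Cdk4 start, made up part of the length in all 9 lists. The Cdk4 promoter is shown because it holds 4 E-boxes in 249 bases; capitals mark them and 1 GC box on the minus strand, in the RefSeq entry on the plus strand of GRCm38.p6, chr10:127063285-127063533.
Cdk4 promoter: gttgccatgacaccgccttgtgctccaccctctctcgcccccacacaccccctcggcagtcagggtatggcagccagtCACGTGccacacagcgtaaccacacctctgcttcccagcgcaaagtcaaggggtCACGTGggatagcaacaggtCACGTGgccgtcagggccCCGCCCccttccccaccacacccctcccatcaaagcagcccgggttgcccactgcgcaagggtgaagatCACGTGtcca
An E-box stood in 6.02% of the 32851 RefSeq promoters, and 4 or more stood in 7 of them. A peak reached the last of these bases in Ma_1007, Ma_1181 and Ma_1014, and in the other lists the promoter peak began downstream of them. The match of letters says nothing about binding in these cells.

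Cdk6 was marked inside the gene more regularly than at its promoter. It lies on the plus strand of chromosome 5 from 3341485 to 3531008, and its window of 210 kb is the longest of the 10. Promoter calls were made in Ma_1181, Ma_1014, Ma_1039, Ma_1062 and Ma_1069, and not in Ma_1007, Ma_1456, Ma_1057 or Ma_1064, and 1 other protein-coding gene had this pattern. Where called, the strongest promoter peak ranked at the 3.87 percentile in Ma_1181, 63.4 in Ma_1014, 36.8 in Ma_1039, 51.9 in Ma_1062 and 27.05 in Ma_1069. The calls were 2 of 5 in ΔEcad and 3 of 4 in Ecad lines (two-sided p = 0.524 by Fisher's exact test).

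Introns of Cdk6 held 3 elements called in all 9 lists, with summits 27.5, 59.1 and 110 kb from the annotated 5′ end, and 1 at 92.0 kb called in 7 lists. The element at 110 kb ranked at the 58.7 to 91.1 percentile, above the promoter peak in each of the 5 lists that had one. Covered length was 4.29 kb in Ma_1007, 5.85 kb in Ma_1181, 8.25 kb in Ma_1014, 7.67 kb in Ma_1039, 14.4 kb in Ma_1062, 5.52 kb in Ma_1456, 5.83 kb in Ma_1057, 4.40 kb in Ma_1064 and 12.6 kb in Ma_1069. Ma_1062 and Ma_1069, a male and a female ΔEcad line, had 11 and 12 peaks against 5 or 6 in each other line, and of the 18 merged elements in the window 11 were called in 1 list only. Neither genotype (ΔEcad minus Ecad 2.02 kb, exact permutation p = 0.429) nor the female ΔEcad group (-0.0598 kb, p = 0.988, exact permutation test) separated the values. The Cdk6 promoter (chr5:3343643-3343731, RefSeq, plus strand, 89 bases up to the first exon that overlaps the entry) and 201 bases at the median summits of a pair of shared intronic elements (chr5:3400437-3400637 and chr5:3451704-3451904, GRCm38.p6, plus strand) are set together to contrast the variable and the constant sites. Capitals mark an E-box in the promoter, and in the element at 59.1 kb a SOX motif (ACAAAG, read on the minus strand) and a CCAAT box on the minus strand; the element at 110 kb held none of the 6 motifs.
Cdk6 promoter: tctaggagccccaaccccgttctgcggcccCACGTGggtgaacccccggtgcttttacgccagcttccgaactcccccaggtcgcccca
Cdk6 element at 59.1 kb: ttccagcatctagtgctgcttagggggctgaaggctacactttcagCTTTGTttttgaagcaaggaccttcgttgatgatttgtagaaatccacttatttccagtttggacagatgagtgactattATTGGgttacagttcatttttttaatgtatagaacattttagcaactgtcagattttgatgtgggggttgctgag
Cdk6 element at 110 kb: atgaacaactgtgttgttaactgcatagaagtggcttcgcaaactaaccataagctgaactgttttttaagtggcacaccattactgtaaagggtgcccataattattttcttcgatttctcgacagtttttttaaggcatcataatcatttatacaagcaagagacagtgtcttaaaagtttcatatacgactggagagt
The share of the 8183 regions called in all 9 lists with such a match in the 201 bases centred on the summit was 15.5% for the SOX motif and 18.4% for the CCAAT box.

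**Figure D2:**
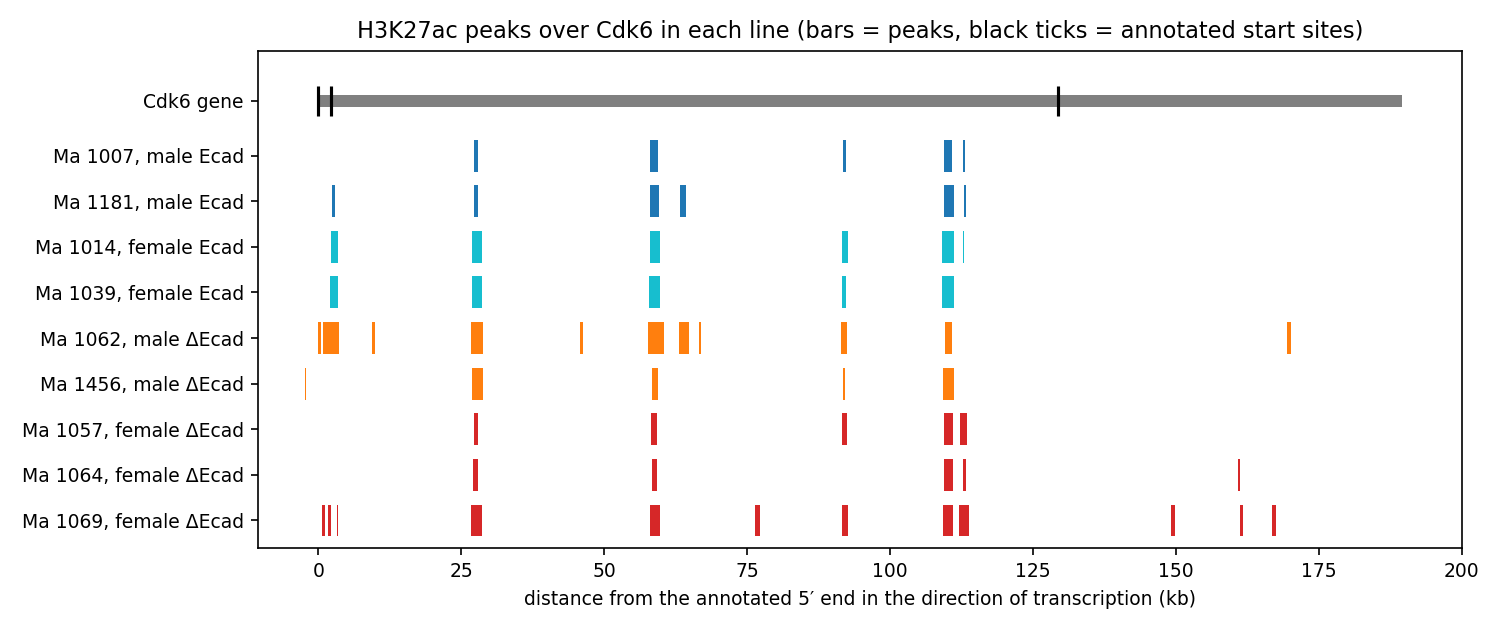
Bars are H3K27ac peaks in each line (blue male Ecad, cyan female Ecad, orange male ΔEcad, red female ΔEcad) at their distance from the annotated 5′ end of Cdk6 in kb, and black ticks on the grey gene are start sites. The elements at 27.5, 59.1 and 110 kb are present in all 9 lines, and Ma_1062 and Ma_1069 hold the most peaks, 11 and 12.

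Rb1, the gene of the retinoblastoma protein, was called in all 9 lists only because of an internal start. It lies on the minus strand of chromosome 14 from 73183673 to 73325822, and Lpar6, a gene of the opposite strand, lies within it. A peak with its summit 87.5 to 87.6 kb from the Rb1 5′ end was present in all 9 lists. It covered the Lpar6 start and came within 1 kb of a short non-coding Rb1 transcript that starts at 73239786. By −log10 q it ranked at the 65.5 to 92.2 percentile. At the 5′ end itself, where the coding transcript begins, a peak within 1 kb was present in Ma_1007, Ma_1181, Ma_1014, Ma_1039, Ma_1062 and Ma_1456 and absent from Ma_1057, Ma_1064 and Ma_1069. That is 0 of 3 female ΔEcad lines against 6 of 6 others (two-sided p = 0.0119 by Fisher's exact test, the smallest that 84 splits allow). Reading the 5′ starts apart was decided after these peaks were seen, but the planned reading from protein-coding transcripts alone gives the same calls. Under it 14.3% of 6869 genes were called less often in the female ΔEcad lines at an unadjusted p under 0.05, and 0 passed after adjustment. The strongest 5′ peak ranked at the 48.8 percentile in Ma_1007, 55.9 in Ma_1181, 37.0 in Ma_1014, 11.4 in Ma_1039 and 41.1 in Ma_1062. In Ma_1456 it ranked at the 0.465 percentile, close to the calling threshold. A peak missing from the female ΔEcad lists is a region below that threshold, not one without the mark.

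**Figure D3:**
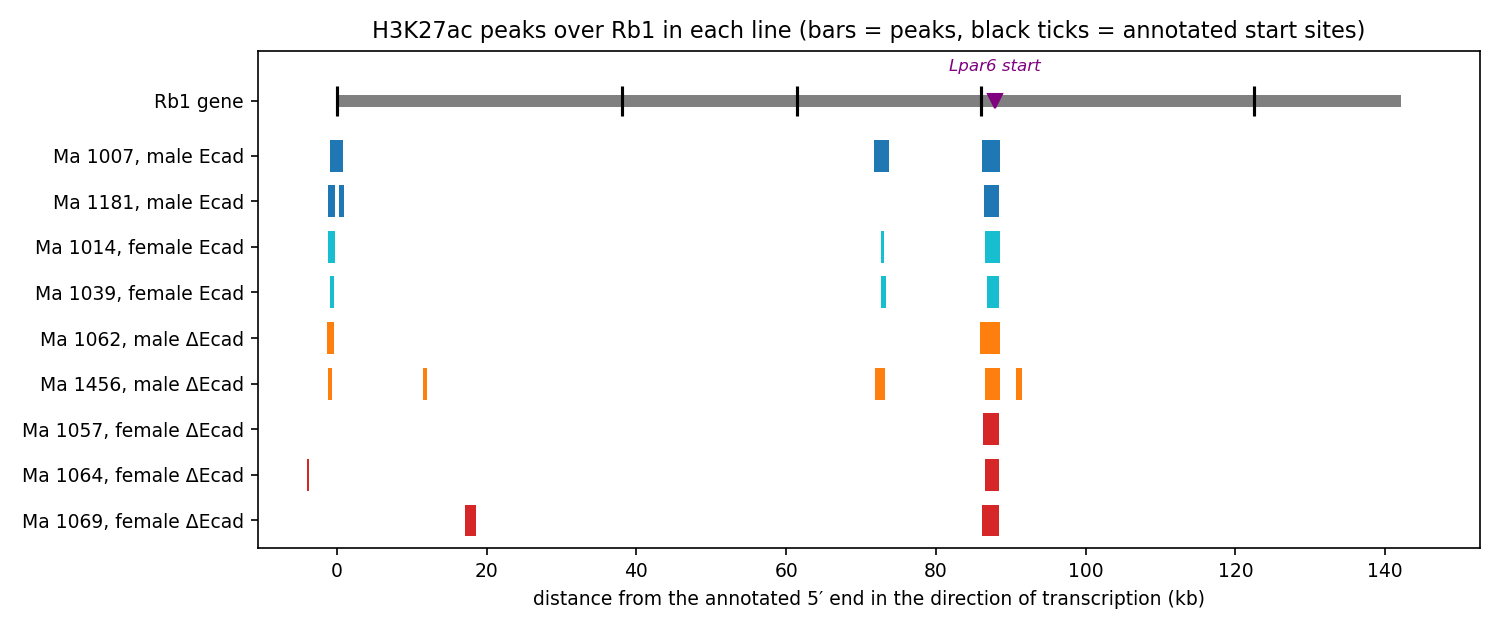
Bars are H3K27ac peaks in each line, in the colours of the genotype and sex groups, at their distance in kb from the annotated 5′ end of Rb1; black ticks are Rb1 start sites and the purple triangle is the Lpar6 start. All 9 lines have a peak at 87.5 kb, and the 3 female ΔEcad lines lack one at the 5′ end.

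Covered length of Rb1 was 6.19 kb in Ma_1007, 3.45 kb in Ma_1181, 3.45 kb in Ma_1014, 2.76 kb in Ma_1039, 3.70 kb in Ma_1062, 5.30 kb in Ma_1456, 2.13 kb in Ma_1057, 2.19 kb in Ma_1064 and 3.71 kb in Ma_1069. Ma_1057 and Ma_1064 were lowest, and Ma_1069 lay among the other lines through a peak 17.5 kb inside the gene that no other list had (female ΔEcad against the rest -1.46 kb, exact permutation p = 0.119).

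**Figure D4:**
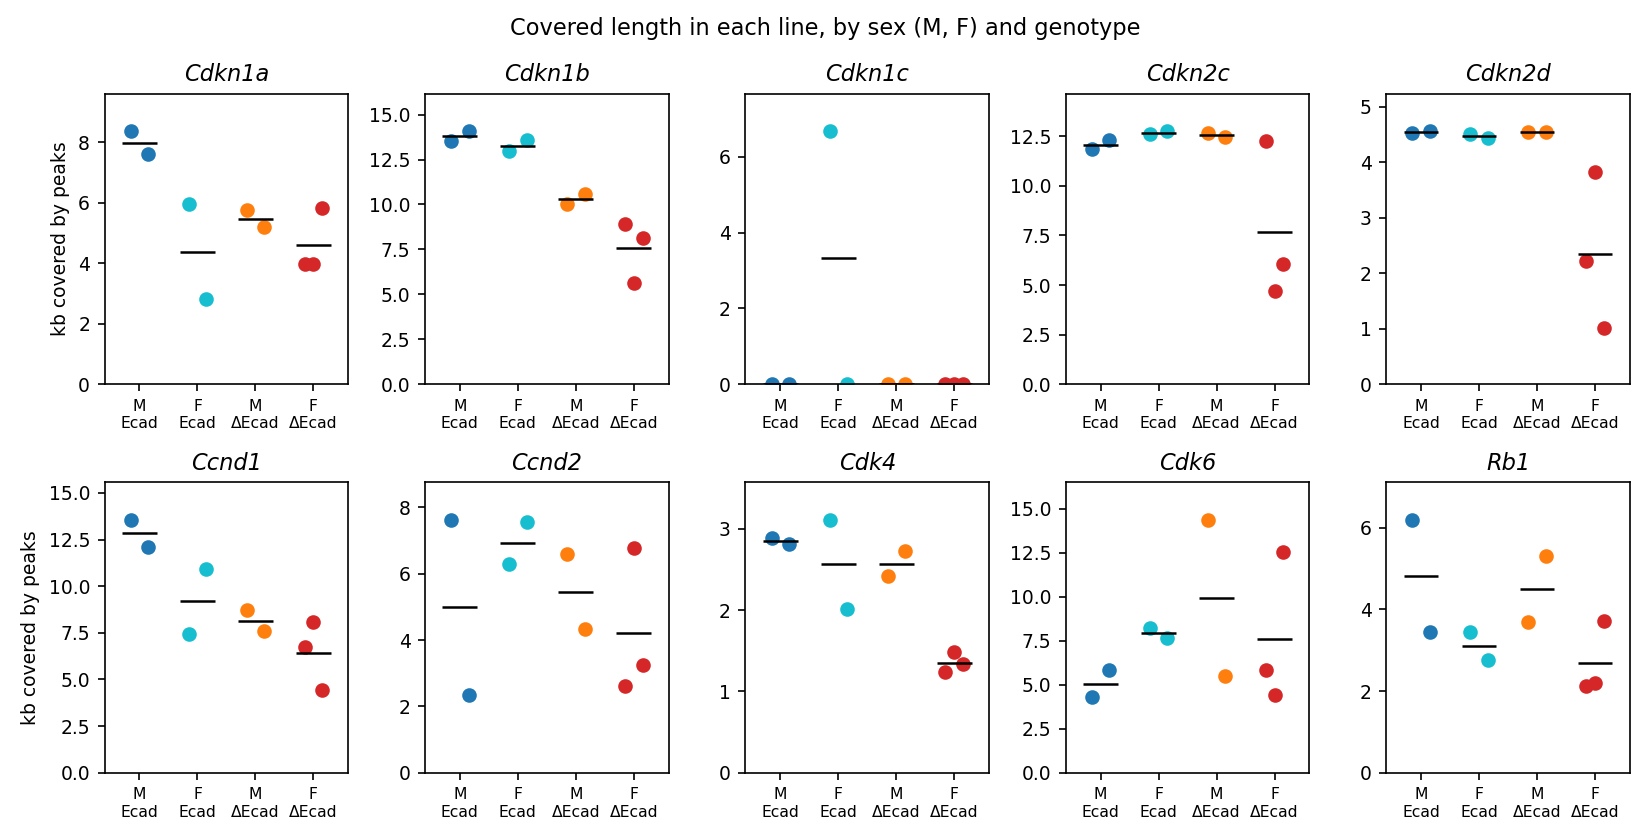
Points are the kb covered in each line for the 10 genes (1 panel a gene, vertical axes from 0), by male (M) or female (F) sex and genotype, and black bars are group means. The female ΔEcad points lie below all others for Cdkn1b, Cdkn2d and Cdk4, and the Ecad points lie above all ΔEcad points for Cdkn1b. Of all 15380 genes tested, 25.1% were lower in female ΔEcad lines and 17.2% in ΔEcad lines at an unadjusted p under 0.05. The share of genes without overlap is not given here.

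The ΔEcad and Ecad genotypes were compared over the whole table of genes. Covered length was lower in ΔEcad than in Ecad lines at an unadjusted p under 0.05 for 2 of the 10 genes, Cdkn1b and Ccnd1, while 17.2% of the 15380 genes tested were lower. No gene of the 15380 passed an adjusted p of 0.05 (0%, smallest adjusted p = 0.207 by exact permutation with Benjamini-Hochberg adjustment). Of the 10 genes, 9 had a lower mean in ΔEcad lines, with Cdk6 the exception, beside 79.1% of all genes tested. The median difference of the 10 was -1.26 kb against -0.496 kb over all genes tested. The share of 2 in 10 is near the background.

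The female ΔEcad lines were then set against the other 6. Covered length was lower at an unadjusted p under 0.05 for 4 of the 10 genes, Cdkn1b, Cdkn2c, Cdkn2d and Cdk4, beside 25.1% of the 15380 genes, and 0 genes (0%) passed the adjusted threshold (smallest adjusted p = 0.0914 by the exact permutation test). For Cdkn1b the means were 7.55 kb ± 1.72 (n = 3) and 12.5 kb ± 1.71 (n = 6). All 10 differences were below 0, as were those of 85.0% of all genes tested. The median of the 10 was -1.52 kb against -0.682 kb over all genes. The length of the lists moved with this result, as the female ΔEcad lists covered 29.5 to 39.5 Mb in all against 37.1 to 67.2 Mb, and its part in the result was not tested. Per Mb covered by the list, 0 of the 10 genes passed in either comparison, beside 13.5% of all genes lower in female ΔEcad lines and 7.99% lower in ΔEcad lines; the exact permutation p was 0.0714 for Cdkn2d and for Cdk4 and 0.298 for Cdkn1b in female ΔEcad lines, and 0.254 for Cdkn1b between genotypes.

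**Figure D5:**
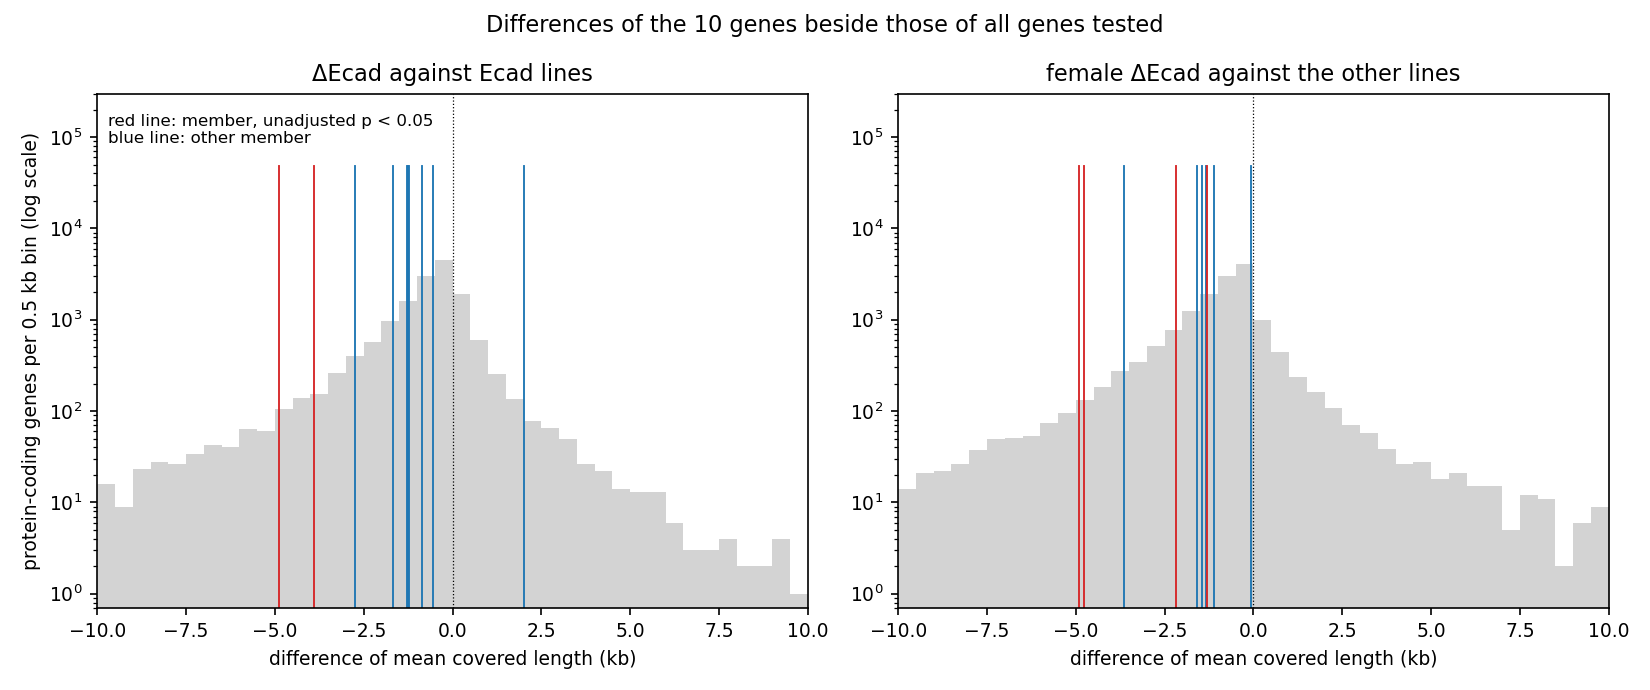
Grey bars count protein-coding genes by the difference of mean covered length in kb (log vertical axis), for ΔEcad minus Ecad lines on the left and female ΔEcad minus the other lines on the right; vertical lines are the 10 genes, red at an unadjusted p under 0.05 and blue otherwise. All but Cdk6 in the left panel lie below 0, as do most of all genes tested.

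Promoter calls could differ for the 3 genes called in 1 to 8 lists. None of Cdkn1c, Cdkn2d and Cdk6 passed between genotypes (two-sided p = 0.444, 1 and 0.524 by Fisher's exact test), where 9.38% of 6985 variable genes were called less often in ΔEcad lines at an unadjusted p under 0.05. For the female ΔEcad lines the p-values were 1, 0.333 and 0.524 by the same exact test, beside 13.7% of genes. After adjustment 0 of the 6985 genes (0%) passed in either comparison.

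Lines without Cdkn2a peaks were read one by one, since a measured value names them. Ma_1007, Ma_1062 and Ma_1069 gave the lowest, the highest and the second highest covered length of Cdk6, 4.29, 14.4 and 12.6 kb. For Cdkn2c, another INK4 gene, they gave 11.8, 12.7 and 6.08 kb, within the range of 4.69 to 12.7 kb of the other lines. For Rb1, the target that p16 protects from phosphorylation, they gave 6.19, 3.70 and 3.71 kb against 2.13 to 5.30 kb. Ma_1007 held the widest marking of Cdkn1a, Ccnd1, Ccnd2 and Rb1 and, with 41663 peaks, the longest list. Ma_1069 held the narrowest of Cdkn2d and Ccnd1 and, with 20741 peaks, the shortest list. Ccnd1 covered 13.6, 8.73 and 4.44 kb in the 3 lines, so the highest and the lowest value of that gene both came from lines without Cdkn2a peaks.

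The other genes of the pathway were 32 in 7 lists. Promoters of 9 were called in all 9 lists and of 23 in some, where 21.1% of all protein-coding genes were called in all 9. All 3 genes of the p53 axis (Trp53, Mdm2 and Mdm4) and Cdk2, Cdc25a, Cdk7, E2f3, Cks1b and Ambra1, the gene of a factor that directs D-type cyclins to destruction, were called throughout. Ccnd3, the third D-type cyclin gene, was called in 8 lists, and so were Cdk1, Rbl2, E2f1, E2f5 and E2f7. Rbl1, E2f8 and Skp2 were called in 7 lists, Ccna2, E2f4, Fbxw7, Cdkn2a and Cdkn2b in 6, Ccne1 and Mnat1 in 5, Ccne2, E2f2 and Tfdp1 in 3, Ccnh, E2f6 and Tfdp2 in 2, and Fbxo31 in 1.

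Of the 23 promoters called in some lists, 4 were called less often at an unadjusted p under 0.05 in each comparison, beside 13.7% of all genes tested for the female ΔEcad lines and 9.38% between genotypes. Promoters of Ccna2 (cyclin A2), E2f4 and Fbxw7, the gene of a ubiquitin ligase subunit for cyclin E, were called in 6 of 6 other lines and 0 of 3 female ΔEcad lines (p = 0.0119 by Fisher's exact test, adjusted p = 0.155), and Ccne1 in 5 and 0 (p = 0.0476, adjusted p = 0.337, Fisher's exact test). Between genotypes Ccne1, Ccne2, E2f2 and Tfdp1 were called less often in ΔEcad lines (each p = 0.0476, adjusted p = 0.503, Fisher's exact test). By covered length 8 of the 32 genes were lower and 0 higher in ΔEcad lines at an unadjusted p under 0.05, beside 17.2% of all genes lower, namely Ccnd3, Ccne1, Ccne2, Ccna2, Cdk2, Cdc25a, E2f2 and Tfdp1. No member of the 32 passed after adjustment over all genes. In the female ΔEcad lines 8 were lower and 0 higher, namely Ccnd3, Ccna2, Cdk2, Cdk1, E2f4, Skp2, Cks1b and Fbxw7, a share near the 25.1% of all genes lower. The Cdk2 window overlaps that of the melanocyte gene Pmel, and their covered lengths were equal. Of the 6 melanocyte markers Sox10, Dct and Pmel were lower in both comparisons and Mlana was higher in the female ΔEcad lines (13.3 against 7.62 kb, exact permutation p = 0.0357, adjusted p = 0.154).

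Genes more than 1 Mb away whose covered length followed a member most closely over the 9 lines are given for all but Cdkn1c and Cdk6. For Cdkn1a they were Trp53inp1 (Pearson r = 0.948) and Glrx3 (r = 0.899), for Cdkn1b Nek1 (r = 0.973) and Serpinh1 (r = 0.971), and for Cdkn2d Impact (r = 0.989) and Troap (r = 0.983). For Cdkn2c they were 2610044O15Rik8 and Ercc3 (r = 0.953 for both), for Ccnd1 Zfp592 (r = 0.976) and Hsp90ab1 (r = 0.973), for Ccnd2 Ddx58 (r = 0.949) and Acadl (r = 0.947), and for Rb1 Vps4a (r = 0.947) and Pogz (r = 0.942). For Cdk4 they were Washc4 (r = 0.992) and Styxl1 (r = 0.989). These are the highest correlations of a search over all genes, on 9 points that share each list's depth, and are given as a description.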

How the data were processed

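H3K27ac ChIP-seq peak lists of 9 mouse melanoma cell lines were analysed; the 4 input libraries were not analysed here. The authors used bowtie2, through European Galaxy, and the genome GRCm38 (mm10) for alignment. The submitters' processing notes name Bowtie2 2.4.5, MACS2 2.2.7.1 and deepTools 3.5.1.0.0 without roles; the peak calling settings and the control of each list are not given in the sources used here. Each list is of 1 line, with no pooling.

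The deposited files give, for each peak, a score (10 times the −log10 q, cut to an integer, in nearly all peaks), the fold enrichment as a linear ratio, the −log10 p, the −log10 q and the summit offset in bp, all as the authors made them. They hold no read counts, so depth is unknown, and a missing peak is a region below the calling threshold (the lowest −log10 q was 5.00), not a region without the mark.

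Starts were turned into 1-based positions. Genes, exons and TSSs came from GENCODE M21 (GRCm38). For each of 21938 protein-coding genes a promoter call (peak within 1 kb of a TSS of any transcript) and the covered length (gene body plus 10 kb on each side) were taken per list. Calls were compared by Fisher's exact test over the genes called in 1 to 8 lists, and covered lengths by an exact permutation test over lines for all genes with a peak, both two-sided and Benjamini-Hochberg adjusted over all genes tested (scipy 1.17.1, statsmodels 0.14.6). The 5 ΔEcad lines were compared with the 4 Ecad lines, and the 3 female ΔEcad lines with the other 6; sexes were given as values. The tests were tried on simulated data. Percentiles rank a peak by −log10 q in its own list. Promoter sequences were RefSeq's, on GRCm38.p6, found for 6 of the 10 genes and trimmed before the first exon; element sequences were read from the same assembly.

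The genes, the pathway lists and the tests were chosen with earlier results of these data known. All 10 genes are named, and a pathway gene is named where its promoter was called in part of the lists or where it passed an unadjusted p; those called in all lists were named as well. Groups follow the sex and genotype labels, and replicate numbers follow the order of deposition. Alternatives were other promoter windows and start sites, other flanks, covered length per Mb of the list, peaks at other promoters left out, the stronger peaks of each list (those at or above its median −log10 q), lists of equal length and each line left out.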

Additional observations from a re-analysis of the deposited data

Results flagged for a closer look

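Cdkn1c was covered over 6.67 kb in Ma_1014 and over 0 kb in the other 3 Ecad lines, which sets Ma_1014 apart from its genotype group. The rule used would set a line apart by chance in about 1 of 20 groups if values varied continuously. In all, 20 groups of covered lengths (10 genes in each genotype) were examined. That rate does not apply to Cdkn1c, because the other 3 Ecad lines were tied at 0 kb. With such ties the rule flags any 1 line that has a peak.

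The mean covered length of Cdkn2c differed between genotypes in opposite directions in the sexes. Both male ΔEcad lines lay above both male Ecad lines, by 0.489 kb in the means, and all 3 female ΔEcad lines lay below both female Ecad lines, with a difference of -4.99 kb. In the male Ecad lines a gap between called peaks, from 3.91 to 4.29 kb in Ma_1007 and from 3.88 to 4.21 kb in Ma_1181, lowered the covered length. In Ma_1062 and Ma_1456 a single peak ran across that stretch. The small male difference thus depends in part on how peaks were split. The share of all genes with such a pattern is not given here. The difference between the sexes was not tested.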

How the results depend on the processing

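The count of genes with a different covered length between genotypes was 2; it was 1 with 2 kb flanks, 0 per Mb covered by the list, and 1 to 3 when a single line was left out. It was 1 without Ma_1007, Ma_1181 or any 1 of the ΔEcad lines, through Ccnd1, and 3 without Ma_1039, with Cdkn1a and Cdk4 added and Ccnd1 lost. In female ΔEcad lines the count of 4 was 0 per Mb and stayed within 1.5 times otherwise. Rb1 made the count of different promoter calls 1 in female ΔEcad lines with protein-coding transcripts only, and the count of promoters called in all 9 lists was 4 with the stronger peaks of each list. With protein-coding transcripts only, Rb1 was not among the promoters called in all 9 lists.

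Some differences changed sign, in each case for a gene that did not pass. Between genotypes, per Mb covered, they were 0.00972 kb for Cdkn1a, 0.00655 kb for Ccnd2 and 0.0124 kb for Rb1, and with lists of equal length 0.491 kb for Rb1. Leaving out 1 line gave -1.03 to 0.187 kb for Rb1, above 0 without Ma_1007. In female ΔEcad lines they were 0.0107 kb for Cdkn1a and 0.0597 kb for Cdk6 per Mb, and 0.120 kb for Cdk6 with equal lists, and leaving out 1 line gave -2.54 to 1.54 kb for Cdk6. The causes were not tested beyond the construction of each alternative. Over the 10 genes and both comparisons, 263 alternative values of covered length kept direction and side of the threshold. A further 20 no longer passed, 5 newly passed and 12 changed sign. Of promoter calls 280 kept both and 2 newly passed. Both were Rb1 in female ΔEcad lines, by protein-coding transcripts only and by the 5′ starts. These 2 readings gave the same calls, so they are 1 result. Reading only the Rb1 5′ starts was added after seeing the data.

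No paired analysis was possible because replicate numbers only name lines in order of deposition. Depth is unknown, so a missing peak is not shown to be a missing mark.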
